A study of Mus musculus with 8 samples.

Results

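Synaptotagmins are membrane proteins of secretory vesicles, and 10 of their genes (Syt1 to Syt7 and Syt9 to Syt11) were followed here by symbol in nuclear RNA of cortical GABAergic neurons, the inhibitory neurons of the mouse cortex. All 10 were present among the 55341 gene symbols of the count files, and all 10 were among the 17355 genes with enough reads to be tested. The study compared 2 groups of juvenile mice with 4 animals and 4 libraries each. The PTU group (mice 9 to 12) was hypothyroid, since the pregnant mothers had received propylthiouracil, which blocks thyroid hormone synthesis. The PTU+TH group (mice 13 to 16) shared that PTU exposure and also had 1 intraperitoneal dose of thyroid hormone (TH), given 24 h ahead of tissue collection. In both groups a Cre-dependent nuclear fluorescent reporter marked GABAergic neurons, and nuclei were taken with a cell sorter. The labels used here name neither the promoter of the Cre driver, the exact age, the sex nor the hormone dose, and no group with normal thyroid hormone was analysed here. All classes of cortical GABAergic neurons are pooled in each library.

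A synaptotagmin carries a transmembrane segment and a pair of C2 domains, which in most members bind calcium and phospholipids. Syt1 and Syt2 are fast sensors that couple calcium entry to synchronous transmitter release, and Syt2 is widely used as a marker of the terminals of parvalbumin (PV) basket cells in cortex. Syt7 is a slower sensor of higher affinity linked to facilitation and asynchronous release, Syt3, Syt6 and Syt10 belong to a group of disulphide-linked sensors, and Syt4 and Syt11 have a first C2 domain that does not bind calcium. The names Syt5 and Syt9 have been exchanged between nomenclatures, in which one of the pair is a fast sensor and the other a disulphide-linked one, so no role is given here to the genes with these symbols. Thyroid hormone acts mainly through nuclear receptors that bind DNA elements built from AGGTCA motifs.

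Depth allowed all members to be read. Library totals ranged from 21762810 to 29084071 counts, and the least covered member, Syt9, had between 129 and 282 counts per library. The GABAergic genes Gad1 and Gad2 averaged 471 ± 51.7 and 427 ± 25.9 CPM (counts scaled to a common library size) over the PTU mice (SD, n = 4) and 422 ± 22.4 and 458 ± 24.3 CPM over the PTU+TH mice. Of the 5 tested pan-GABAergic genes 0 were called by edgeR, DESeq2 or limma voom, where edgeR called 2.12% of all genes. Of these 5, 3 had negative log2 fold changes (median -0.136 over the list), and 1 had an unadjusted p under 0.05 (12.8% of all genes by edgeR). That gene was Dlx6os1, at 237 ± 29.3 CPM in the PTU mice and 193 ± 3.96 CPM in the PTU+TH mice (SD, n = 4 each) without overlap (4.03% of all genes were lower in this way). Its log2 fold change was -0.30 (edgeR adjusted p = 0.203), while that of Slc32a1, the vesicular GABA transporter, was 0.33 (edgeR adjusted p = 0.64). The 7 excitatory neuron genes summed to 276 to 319 CPM per PTU library and 246 to 328 CPM per PTU+TH library. Of them 0 were called at an adjusted p under 0.05 by edgeR's quasi-likelihood test, DESeq2 or limma voom, and 0 had an unadjusted p under 0.05. With lists this short and such shares over all genes, 0 calls do not show an unchanged level. Libraries of PTU+TH mice 15 and 16 had 0 counts of 4 Y-linked genes, against 7960 to 11548 in the other 6. The labels give no sex. All PTU libraries had such counts and PTU+TH mice 15 and 16 did not, so the groups differ in this and it is partly mixed with the treatment. Results are therefore also given for the 6 libraries with Y-linked counts.

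The promoters of Syt2 and Syt3, the 2 members that rose after TH, are shown because these genes carry the result. Each is given as the 250 bases before a RefSeq transcription start (build GRCm38.p6, plus strand, 5′ to 3′), with a match to the TH receptor motif AGGTCA on either strand in capitals. Syt2 has 2 such windows, at chr1:134646362-134646611 and chr1:134709050-134709299, and Syt3 has 1, at chr7:44383876-44384125.
Syt2 upstream start: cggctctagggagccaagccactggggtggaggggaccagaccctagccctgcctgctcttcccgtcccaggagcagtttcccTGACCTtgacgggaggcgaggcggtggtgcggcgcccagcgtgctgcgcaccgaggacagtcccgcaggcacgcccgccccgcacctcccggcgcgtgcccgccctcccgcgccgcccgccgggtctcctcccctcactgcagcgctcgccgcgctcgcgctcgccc
Syt2 downstream start: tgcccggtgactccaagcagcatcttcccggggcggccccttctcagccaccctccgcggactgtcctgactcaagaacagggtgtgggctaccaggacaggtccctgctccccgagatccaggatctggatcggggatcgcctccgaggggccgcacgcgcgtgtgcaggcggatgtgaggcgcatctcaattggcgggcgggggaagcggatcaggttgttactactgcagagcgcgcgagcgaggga
Syt3: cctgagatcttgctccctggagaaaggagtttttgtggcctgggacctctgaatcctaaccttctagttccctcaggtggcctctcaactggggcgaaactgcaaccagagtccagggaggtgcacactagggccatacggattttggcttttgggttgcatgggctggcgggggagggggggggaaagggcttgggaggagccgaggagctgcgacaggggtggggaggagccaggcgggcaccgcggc
The upstream Syt2 window held 1 match, written here as its reverse complement TGACCT, which ends 162 bases before the start. The downstream Syt2 window and the Syt3 window held 0. Windows were found for 7 of the 10 members (not for Syt4, Syt5 and Syt7), and 4 of these 11 windows, from Syt1, Syt2 and Syt6, held the motif, the last in 2 windows that overlap. Among all 32851 promoter windows of the same length, 14% held AGGTCA on either strand. The spaced repeat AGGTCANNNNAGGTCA was in 0 of the 11 windows and in 0.0152% of all windows. A match describes the letters in the window and is not evidence of receptor binding.

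Syt2 and Syt3 rose after TH, and the other 8 synaptotagmins did not pass the test. Syt2 went up 2.21-fold and Syt3 1.43-fold. A gene was called at a Benjamini-Hochberg adjusted p under 0.05 in edgeR's quasi-likelihood test over all 17355 genes. By this rule 2 of the 10 synaptotagmins were called higher and 0 lower, where 1.49% of all tested genes were called higher, 0.634% lower and 2.12% in either direction. At an unadjusted p under 0.05 there were 4 of 10 (Syt2, Syt3, Syt5 and Syt7), against 12.8% of all genes. DESeq2 and limma voom called the same 2 members. The groups did not overlap in 3 of the 10, 2 higher and 1 lower, against 4.68% of all genes higher and 4.03% lower. The median log2 fold change of PTU+TH over PTU was 0.07 over the 10 members and -0.0066 over all genes.

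**Figure D1:**
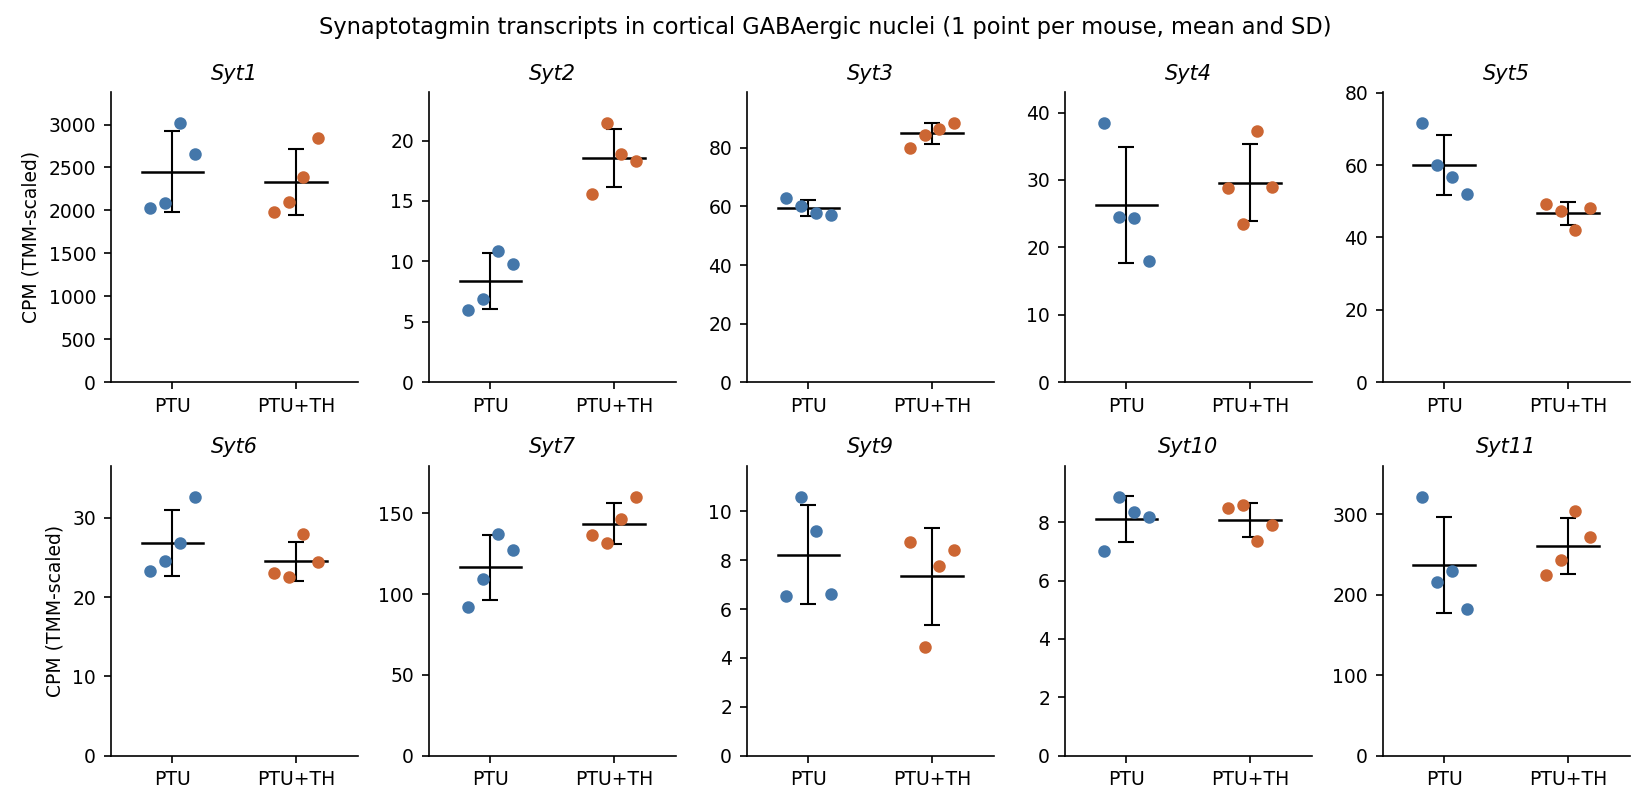
TMM-scaled CPM of the 10 synaptotagmins in each mouse (points), with the mean and SD of 4 PTU and 4 PTU+TH mice; each vertical axis starts at 0. In Syt2 and Syt3 all 4 PTU+TH points lie above all 4 PTU points, in Syt5 all 4 lie below, and the groups overlap in the other 7 genes.

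Among the fast sensors, Syt2 stood at 5.97, 6.89, 10.9 and 9.75 CPM in PTU mice 9 to 12. It stood at 15.6, 21.45, 18.9 and 18.3 CPM in PTU+TH mice 13 to 16. The lowest PTU+TH library was thus above the highest PTU library, and the raw counts went from between 164 and 223 to between 370 and 624. The means were 8.38 ± 2.32 and 18.5 ± 2.40 CPM (SD, n = 4 each), a log2 fold change of 1.15 (SE 0.19, 95% interval 0.74 to 1.56, edgeR adjusted p = 0.00603). In the 6 libraries with Y-linked counts, which leave 2 PTU+TH mice, the log2 fold change was again 1.15 but was not called (edgeR adjusted p = 0.13). The PTU+TH mice without Y-linked counts, at 18.9 and 18.3 CPM, lay between the other two. In these bulk libraries, more cells of a type and more Syt2 RNA per cell cannot be told apart.

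Syt2 also differed among PTU mice, of which mice 9 and 10 stood apart from mice 11 and 12 across all genes. The chi-square per degree of freedom between their libraries was 29.67 to 72.61 across these pairs, against 18.61 for mice 9 and 10 and 8.89 for mice 11 and 12, and 8.38 to 24.84 among the PTU+TH libraries. Mice 9 and 10 averaged 6.43 CPM and mice 11 and 12 averaged 10.3 CPM, and Syt1 and Syt7 were likewise lower in mice 9 and 10. Within the mice numbered 9, 10, 13 and 14, Syt2 went from 6.43 to 18.5 CPM, and within mice 11, 12, 15 and 16 from 10.3 to 18.6 CPM. With this split by mouse number as a second term, edgeR gave a log2 fold change of 1.19 (adjusted p = 0.00138). The labels do not say that the numbers mark a litter or batch, nor do they tie PTU mice to PTU+TH mice. Within PTU+TH the split by number (13 and 14 against 15 and 16) is also the split by Y-linked counts, so these cannot be told apart there. The 3′ end of Syt2 shares 7.94 kb with Ppp1r12b on the opposite strand, and 93.2% of its body is free.

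Syt1, the main fast sensor of forebrain synapses, did not pass the test. Its libraries held 2032, 2090, 3017 and 2661 CPM in the PTU mice and 1984, 2100, 2384 and 2843 CPM in PTU+TH, and the lowest and the highest PTU+TH libraries both lay under the highest of PTU. The log2 fold change was -0.07, with a 95% interval of -0.51 to 0.36 (edgeR adjusted p = 0.947). Within the mice 9, 10, 13 and 14 the means were 2061 and 2042 CPM, against 2839 and 2613 CPM within mice 11, 12, 15 and 16, so the sets of mouse numbers differed more than the groups.

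Syt9, listed with the fast sensors in one of these nomenclatures, was scarce. It was at 6.52, 10.6, 9.20 and 6.60 CPM in the PTU mice and 8.77, 4.43, 7.77 and 8.42 CPM in PTU+TH. The groups overlapped, and PTU+TH mouse 14 was both the lowest in Syt9 and the highest in Syt2. The log2 fold change of -0.17 had a 95% interval of -0.68 to 0.34 (edgeR adjusted p = 0.867), so changes of either sign within these bounds are not excluded. Without PTU+TH mouse 14 it was 0.0165.

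Whether Syt1, Syt2 and Syt9 responded differently was tested on ratios within each library, which do not depend on how libraries are scaled. For every 1000 counts of Syt1 there were 2.94, 3.29, 3.61 and 3.66 counts of Syt2 in PTU and 7.86, 10.2, 7.91 and 6.43 in PTU+TH. The log2 ratio of Syt2 to Syt1 went from -8.21 ± 0.15 to -6.97 ± 0.27, a difference of 1.25 with no overlap (SD, n = 4 each, two-sided exact permutation p = 0.0286, adjusted over 3 ratios 0.0429). This unadjusted p is the smallest that 70 arrangements allow.

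The log2 ratio of Syt2 to Syt9 moved in the same direction, from 0.01 ± 0.51 to 1.38 ± 0.63, also without overlap (SD, n = 4 each, two-sided exact permutation p = 0.0286, adjusted 0.0429). Syt2 had 0.916, 0.649, 1.18 and 1.48 counts per count of Syt9 in PTU and 1.78, 4.84, 2.43 and 2.17 in PTU+TH. The log2 ratio of Syt9 to Syt1 differed by -0.11, less than the SD of 0.44 within each group (two-sided exact permutation p = 0.714, adjusted 0.714). Both ratios with Syt2 had an adjusted exact p of 0.0857 when PTU mouse 10 or PTU+TH mouse 14 was left out, or when medians replaced means. Of all counts on these 3 genes, Syt2 made up 0.292% to 0.364% in PTU and 0.637% to 1.01% in PTU+TH, and Syt1 made up 98.8% to 99.4% over the 8 libraries.

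**Figure D2:**
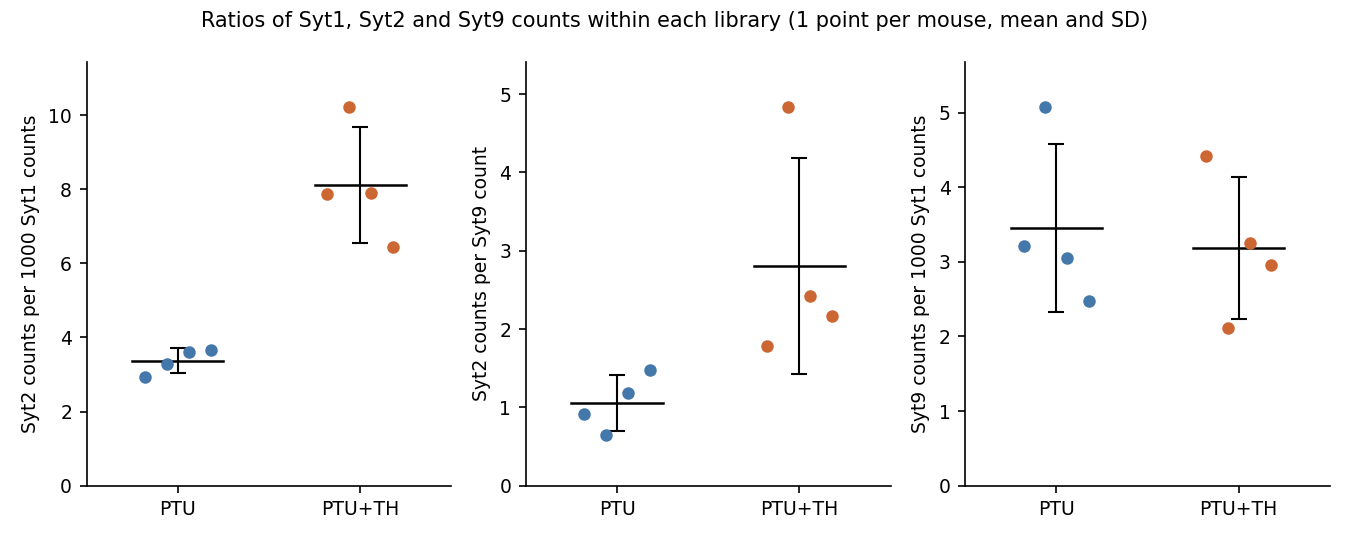
Counts of Syt2 per 1000 counts of Syt1 (left), of Syt2 per count of Syt9 (middle) and of Syt9 per 1000 counts of Syt1 (right) in each mouse, with the mean and SD of 4 mice per group. The PTU+TH points of both ratios with Syt2 lie above all PTU points, while the ratio of Syt9 to Syt1 overlaps between the groups.

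Syt7, the slow high-affinity sensor, stood at 91.9, 109.4, 137.4 and 127.4 CPM in the PTU mice and at 136.4, 131.5, 146.4 and 160.4 CPM in PTU+TH. The ranges met between 131.5 and 137.4 CPM, where PTU mouse 11 lay above 2 PTU+TH mice. The log2 fold change was 0.30 (SE 0.12, 95% interval 0.04 to 0.57), with an unadjusted p of 0.0273 and an edgeR adjusted p of 0.294. Within the sets of mouse numbers the means of PTU+TH and PTU were 134.0 and 100.7 CPM in mice 9, 10, 13 and 14 and 153.4 and 132.4 CPM in mice 11, 12, 15 and 16. With the sets as a term the edgeR adjusted p was 0.0633, still above the threshold.

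Among the disulphide-linked group, Syt3, which takes part in the activity-dependent retrieval of AMPA receptors, had the smallest SE of the 10 members. It was at 63.1, 60.0, 57.8 and 57.1 CPM in the PTU mice and at 80.1, 84.6, 86.5 and 88.5 CPM in PTU+TH. The gap between the groups, from 63.1 to 80.1 CPM, was wider than the range within either. The means were 59.5 ± 2.68 and 84.9 ± 3.58 CPM (SD, n = 4 each), a log2 fold change of 0.51 (SE 0.08, 95% interval 0.34 to 0.68, edgeR adjusted p = 0.00369). Syt3 thus ranked 84th by p-value among all tested genes and Syt2 110th, although the fold of Syt2 was larger. In the 6 libraries with Y-linked counts the log2 fold change of Syt3 was 0.47 (edgeR adjusted p = 0.0927). Of the Syt3 body (chromosome 7, 44384102 to 44400187), 72.2% is free of other genes.

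Syt5 was the member with the lowest fold change. It was at 71.6, 59.9, 56.6 and 52.1 CPM in the PTU mice and at 49.1, 47.2, 42.1 and 48.2 CPM in PTU+TH, with all 4 PTU+TH libraries below all 4 PTU libraries. The log2 fold change was -0.36 (SE 0.11, 95% interval -0.59 to -0.13) with an unadjusted p of 0.00451, and the edgeR adjusted p of 0.117 missed the threshold. With the sets of mouse numbers as a term it was called lower (log2 fold change -0.36, edgeR adjusted p = 0.0459). The labels do not give this split, and of 18 alternatives no other called Syt5.

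Syt6 and Syt10, which are disulphide-linked like Syt3, did not pass. Syt6 ranged from 23.3 to 32.7 CPM in the PTU mice and from 22.5 to 28.0 CPM in PTU+TH, with a log2 fold change of -0.13 (95% interval -0.40 to 0.14, edgeR adjusted p = 0.774), which was -0.0211 without PTU mouse 12 and -0.199 without PTU+TH mouse 15. Syt10, which triggers activity-dependent secretion of IGF-1 in olfactory neurons, was the closest to no difference, with 8.11 ± 0.78 CPM in the PTU mice and 8.08 ± 0.57 CPM in the PTU+TH mice (SD, n = 4 each). Its 95% interval ran from -0.33 to 0.32 on the log2 scale (edgeR adjusted p = 0.996).

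Syt4 and Syt11, whose first C2 domain does not bind calcium, varied together between mice. Syt4, a regulator of dense-core vesicle and BDNF release, was at 38.4, 24.5, 24.4 and 18.02 CPM in the PTU mice and at 28.8, 23.4, 37.2 and 28.9 CPM in PTU+TH. Syt11, which restrains endocytosis, was at 321.8, 216.1, 229.3 and 182.1 CPM in the PTU mice and at 224.1, 242.6, 304.4 and 271.6 CPM in PTU+TH. In both genes PTU mouse 9 was the highest PTU library and PTU+TH mouse 15 the highest PTU+TH library, and the groups overlapped. The log2 fold changes were 0.17 for Syt4 and 0.14 for Syt11, with 95% intervals of -0.29 to 0.62 and -0.22 to 0.49 (edgeR adjusted p = 0.846 and 0.833). Single libraries moved these values: without PTU mouse 9 they were 0.411 and 0.322, without PTU mouse 12 0.0211 and 0.0277, and without PTU+TH mouse 15 0.0366 and 0.0532. Leaving out PTU+TH mouse 14 gave 0.265 for Syt4, and leaving out PTU+TH mouse 13 gave 0.204 for Syt11.

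Grouped as above, the 2 sets of mouse numbers gave opposite differences in these 2 genes, which depends on the grouping. In mice 9, 10, 13 and 14 the mean of Syt11 was 268.9 CPM in the PTU mice and 233.4 CPM in PTU+TH, and in mice 11, 12, 15 and 16 it was 205.7 and 288.0 CPM. For Syt4 the corresponding means were 31.4 and 26.1 CPM in the former set and 21.2 and 33.1 CPM in the latter. In PTU+TH the latter set holds the 2 mice without Y-linked counts, and in the 6 libraries with such counts the log2 fold changes were -0.0125 for Syt4 and -0.023 for Syt11. The labels do not tie PTU mice to PTU+TH mice. The other grouping sets mice 9 and 10 beside 15 and 16, and 11 and 12 beside 13 and 14. In it both genes averaged higher in PTU+TH in each set. Whether the response differs between sets was not tested.

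**Figure D3:**
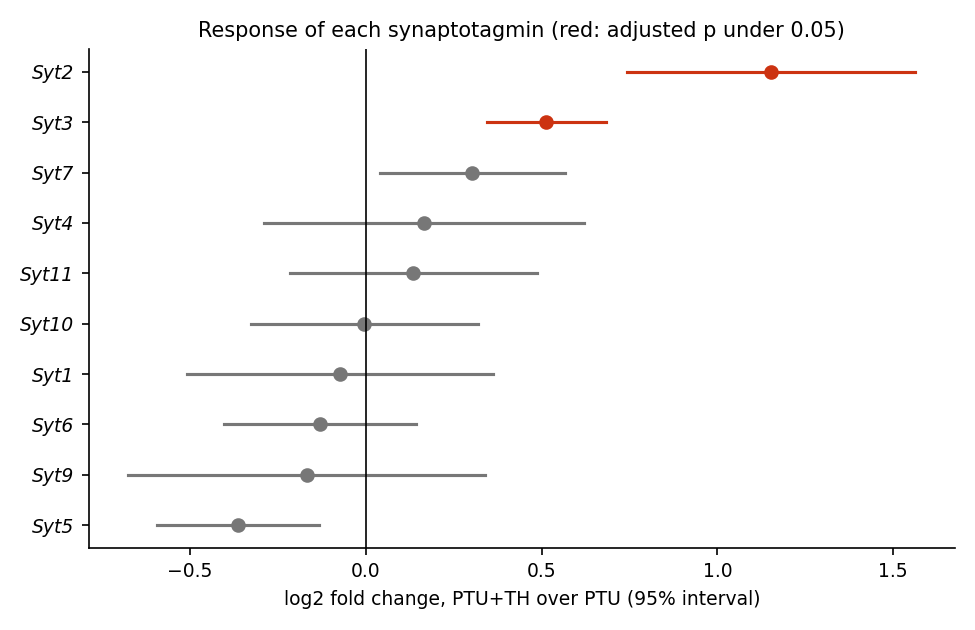
Log2 fold change of PTU+TH over PTU for each synaptotagmin with its 95% interval for a single gene from the edgeR fit (n = 4 mice per group); red marks an adjusted p under 0.05 over all tested genes. Syt2 at 1.15 and Syt3 at 0.51 are red, and the intervals of Syt5 and Syt7 exclude 0 without passing the adjusted threshold.

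Levels of different members were compared per kilobase, since the genes differ widely in length. Syt1 spans 513 kb (chromosome 10, 108497650 to 109010982), Syt2 116 kb (chromosome 1, 134646677 to 134762593) and Syt5 7.78 kb (chromosome 7, 4539765 to 4547541). All 1265 protein-coding genes with a single identifier that lie inside another gene were listed at 0, so lengths were taken over the part of each gene body that no other gene shares. On that scale Syt4 led in PTU with 10.5 ± 3.43 CPM per kb, followed by Syt11 with 7.79 ± 1.96 and Syt5 with 7.72 ± 1.07 (SD, n = 4 each). The ranges of these 3 genes over the PTU mice overlapped. Of the Syt4 body 26.1% is free of other genes, and an annotated antisense gene covers the rest, so its place at the top is uncertain.

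Syt3 with 5.12 ± 0.23 and Syt1 with 4.86 ± 0.94 CPM per kb came next in PTU, and their ranges overlapped as well (SD, n = 4 each). Syt7 followed with 1.98 ± 0.34, Syt6 with 0.40 ± 0.06 and Syt10 with 0.14 ± 0.01 CPM per kb, and these 3 genes did not overlap with each other or with their neighbours in the order. Syt2 with 0.078 ± 0.022 and Syt9 with 0.046 ± 0.011 CPM per kb were lowest in PTU, and the lowest Syt2 library (0.0553) lay below the highest Syt9 library (0.0597). In PTU+TH the order changed at 2 places. Syt2, at 0.17 ± 0.02 CPM per kb, ranged from its lowest library, level with the highest of Syt10, up to 0.199, and Syt3, at 7.31 ± 0.31, passed Syt5, at 5.999 ± 0.40, without overlap (SD, n = 4 each).

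**Figure D4:**
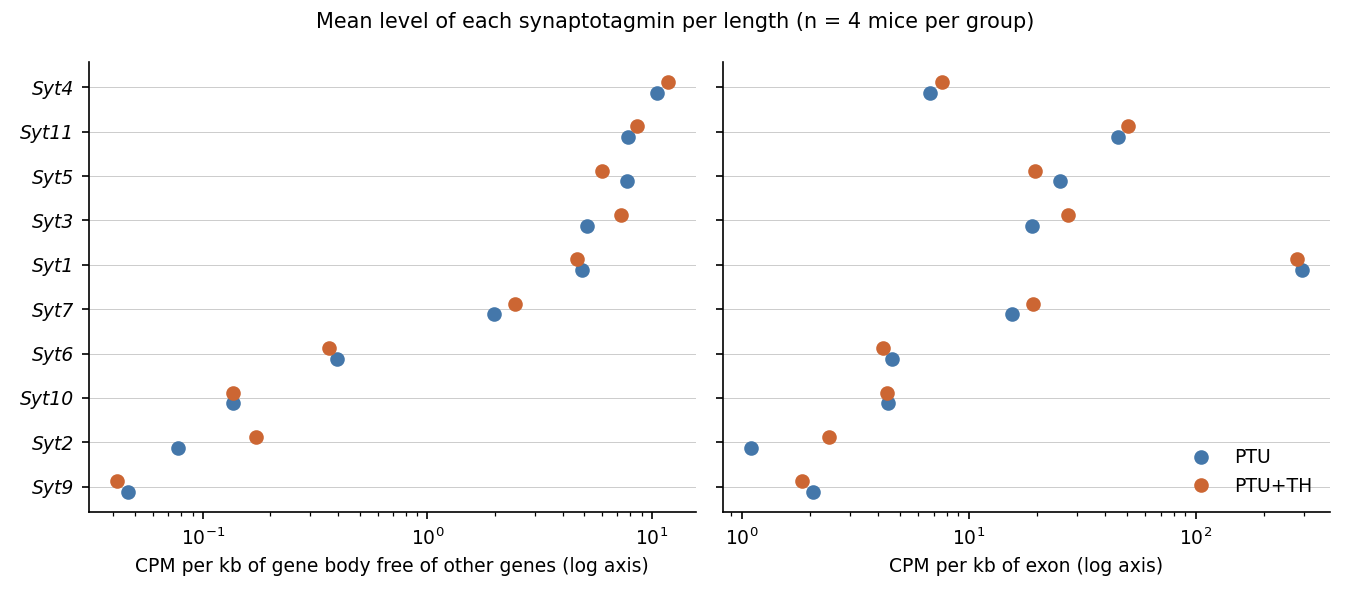
Mean level of each synaptotagmin in PTU (blue) and PTU+TH (orange) mice, n = 4 each, in CPM per kb of gene body free of other genes (left) and per kb of exon (right), both on log axes. Syt1 is the fifth on the left, at 4.86 CPM per kb in PTU, and first on the right, at 294 CPM per kb of exon.

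The order depended on the length used. Per kilobase of exon, which suits spliced messenger RNA, Syt1 was far ahead with 294 CPM per kb in PTU, and Syt11 came second with 45.6. Syt2 was then lowest in PTU with 1.10 CPM per kb of exon, under Syt9 with 2.07, and stood above it in PTU+TH with 2.43 against 1.85. Nuclear RNA holds unspliced transcripts, and the share of intron reads in the counts is not given in the sources used here.

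Genes next to the 2 called members did not pass. Kdm5b, which ends 11.4 kb before Syt2, had a log2 fold change of -0.12, and Ube2t, 200 kb after it, had 0.56 at a mean under 1 CPM (edgeR adjusted p = 0.665 and 0.68). Shank1 and Lrrc4b, 23.5 kb before and 28.8 kb after Syt3, were at 0.16 and 0.06 on the same log2 scale (edgeR adjusted p = 0.78 and 0.886). Of the genes that overlap them, Ppp1r12b at the 3′ end of Syt2 had a log2 fold change of 0.21 (edgeR adjusted p = 0.556). On the other strand of Syt3, 1700008O03Rik was at 2.56 ± 0.50 CPM in the PTU mice and 3.66 ± 0.39 CPM in the PTU+TH mice (SD, n = 4 each), a log2 fold change of 0.51 like that of Syt3 (edgeR adjusted p = 0.346).

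Further relatives with C2 domains were taken from a list of 19 genes of other synaptotagmins, synaptotagmin-like proteins, extended synaptotagmins, Doc2 proteins and rabphilin. Of its 16 tested members 4 had a positive and 12 a negative log2 fold change, with a median of -0.06. EdgeR called 0, as did DESeq2 and limma voom, where edgeR called only 2.12% of all genes. At an unadjusted p under 0.05 there were 4 of 16 by each tool, against 12.8% of all genes by edgeR. Syt12, a phosphorylated member linked to presynaptic plasticity, was the only one with its groups apart, at 8.71 ± 1.93 CPM in the PTU mice and 13.0 ± 2.04 CPM in the PTU+TH mice (SD, n = 4 each; edgeR adjusted p = 0.16). Over all genes the groups were apart in 8.71%, 4.68% with PTU+TH higher, so 1 of 16 is near the background. Rph3a, a Rab3 effector, was next with a log2 fold change of 0.18, and the lowest were Sytl1 with -0.92, at under 1 CPM, and the lipid-transfer tether Esyt1 with -0.46 (edgeR adjusted p = 0.497, 0.54 and 0.239). Sytl1 was at -0.511 without PTU mouse 10 and at -1.36 without PTU+TH mouse 13. Syt8 was listed at 0 in all 8 libraries.

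The fusion machinery on which synaptotagmins act was read from a list of 19 SNAREs, complexins, SV2 proteins, their partners and the presynaptic calcium channels. All 19 were tested, 12 had a positive and 7 a negative log2 fold change, and the median was 0.05. EdgeR, DESeq2 and limma voom each called 0, where edgeR called only 2.12% of all genes. At an unadjusted p under 0.05 there was 1 by edgeR, 3 by DESeq2 and 2 by limma voom, where 12.8% of all genes had one by edgeR. The 1 by edgeR was Cacna1a, the pore of the P/Q-type calcium channel, with 599 ± 179.5 CPM in the PTU mice and 862 ± 61.5 CPM in the PTU+TH mice (SD, n = 4 each; edgeR adjusted p = 0.242). Cplx3, a complexin, had a log2 fold change of 0.69 at 2.32 ± 1.08 CPM in the PTU mice and 3.77 ± 1.13 CPM in the PTU+TH mice (SD, n = 4 each; edgeR adjusted p = 0.392), and of 1.07 without PTU mouse 9. The lowest were Sv2b with -0.22 and the syntaxin-binding protein Stxbp5 with -0.19 (edgeR adjusted p = 0.923 and 0.592).

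Since Syt2 marks PV cells, the class markers were read beside it. Of 8 PV class genes edgeR called 3 higher and 0 lower, where 1.49% and 0.634% of all genes were called, with a list median log2 fold change of 0.42 against -0.0066 over all genes. They were the potassium channel Kcna1 (0.54), the neurofilament Nefh (0.73) and the coactivator Ppargc1a (0.51; edgeR adjusted p = 0.0301, 0.0168 and 0.0407). The list was chosen with earlier results of these data known, so these counts are not a test of the PV class. The other genes of the list were Pvalb, Kcnc1 (0.34, edgeR adjusted p = 0.228) and 3 with negative values, Tac1 (-0.08), Erbb4 (-0.07) and Cntnap4 (-0.26; edgeR adjusted p = 0.91, 0.961 and 0.592). The summed level of the list, 3529 to 6248 CPM per PTU library and 4349 to 5628 CPM per PTU+TH library, was mostly that of Erbb4, at 2889 to 5356 and 3637 to 4691 CPM, and does not show the level of the called genes. Pvalb itself was scarce, at 1.80 ± 0.84 CPM in the PTU mice and 2.54 ± 0.56 CPM in the PTU+TH mice (SD, n = 4 each; edgeR adjusted p = 0.629). Among 7 SST class genes 1 was called lower (Calb1, -0.73 on the log2 scale). Of these 7, 3 had positive and 4 negative log2 fold changes, with a median of -0.0894, and Npy was at 0.47 (edgeR adjusted p = 0.304). Among 4 LAMP5 class genes 1 was called higher (Gabrd, 1.40), while the other 3 were negative, Lamp5 (-0.09), Reln (-0.22) and Ndnf (-0.75), with a list median of -0.155. Among 6 VIP class genes 1 was called lower (Htr3a, -1.11 on the log2 scale, edgeR adjusted p = 0.0344). All 6 VIP class genes had negative log2 fold changes, with a median of -0.287, 3 had an unadjusted p under 0.05 (12.8% of all genes), and in 2 of the 6, Htr3a and Prox1, all PTU+TH libraries lay below all PTU libraries (4.03% of all genes). DESeq2 made the same calls and also called Ndnf of the LAMP5 list lower. The part of class composition in the Syt2 result was not tested.

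In the 5 lists of non-neuronal markers edgeR, DESeq2 and limma voom called 0 genes, where edgeR called only 2.12% of all genes. By each tool 2 had an unadjusted p under 0.05, 1 of 5 tested for oligodendrocytes and 1 of 4 for microglia, where 12.8% of all genes did by edgeR. The summed CPM of 6 astrocyte genes ranged from 125 to 240.6 in PTU and from 127.2 to 366.4 in PTU+TH, and that of 5 oligodendrocyte genes from 89.3 to 106.8 and from 84.0 to 172.9. For 5 microglia genes the sums were 8.88 to 13.4 and 12.9 to 26.9 CPM, and all 4 tested genes had positive log2 fold changes, with a median of 0.85. The 5 endothelial genes summed to 32.9 to 148.1 CPM in the PTU mice and to 33.0 to 106.7 CPM in PTU+TH, and 3 precursor genes of oligodendrocytes to 5.91 to 17.8 and 7.77 to 23.2 CPM. The astrocyte gene Gfap and the microglia gene P2ry12 lie inside other genes and were listed at 0. The part of these cells in the synaptotagmin values was not tested.

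Members were also compared by how their log2 CPM deviated from the group means over the 8 libraries, which leaves out the difference between the groups. The highest of the 45 pairwise Pearson correlations were 0.923 for Syt4 with Syt11 and 0.913 for Syt1 with Syt7, followed by 0.84 for Syt3 with Syt11 and 0.768 for Syt2 with Syt7. The lowest were -0.874 for Syt5 with Syt6 and -0.824 for Syt10 with Syt11. For Syt2 with Syt5 the correlation was -0.749, and -0.915 with the groups left in. For Syt2 with Syt3 it was -0.448, and 0.847 with the groups left in, so the positive sign comes from the difference between the groups and not from the mice within them.

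The genes closest in pattern to Syt2 were sought among 10584 tested genes averaging 5 CPM or more. Over the 8 libraries the highest Pearson correlations of log2 CPM with Syt2 were those of the mannosidase Man1a2 (0.984), the kinase Mark1 (0.984), Luzp1 (0.983), the histone deacetylase Hdac4 (0.983) and the kinase Hunk (0.975). Of these, Luzp1 and Hunk were themselves called higher in PTU+TH, by 0.43 and 1.28 on the log2 scale (edgeR adjusted p = 0.0345 and 0.000406). Among the lowest correlations were those of Tgfb1i1 (-0.985) and Gne (-0.969). By deviations from the group means a separate set of genes led, with Srgap2 (0.99), Hlcs (0.989), Kifc3 (0.978), Elavl3 (0.972) and Flt3 (0.97), and Npc2 (-0.994), Chrna3 (-0.982) and Lins1 (-0.98) were lowest. These are descriptions over 8 libraries that share their scaling, picked from many genes.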

How the data were processed

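The authors deposited raw counts of reads per gene symbol, 1 file per library, as the file values show. Per the submitters' processing notes, Bowtie2 2.5.3 and the build mm10 (GRCm38) were used. Per the labels' protocols, RNA of sorted nuclei went through SMART-Seq v4 and Nextera XT and was read single-end. The counting program, its annotation and its use of strand and introns are not given in the sources used here, so reads in overlapping genes are uncertain. The symbols were those of GENCODE M21, which supplied positions, and promoters came from RefSeq.

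Counts were tested here with edgeR 4.0.16 (R 4.3.3): filterByExpr, TMM scaling, robust quasi-likelihood fit with the group as the only term, Benjamini-Hochberg adjustment over 17355 genes. CPM are counts scaled by TMM library size. SE is the log2 fold change divided by the root of F. Ratios were compared with exact permutation tests of the difference of means, two-sided. Scripts were tested on simulated data. Alternatives used DESeq2 1.42.0, limma 3.58.1, other scalings, filters, terms and fewer libraries.

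The members and lists were chosen with earlier results of these data known. Named were all 10 members, called and extreme members of 2 related lists, and the 5 genes with the highest and 3 with the lowest correlation with Syt2, of which 1 is not reported here. Libraries of a group differed by more than sampling noise (chi-square per degree of freedom 8.38 to 72.61 over pairs). Each library is labelled as a separate mouse.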

Additional observations from a re-analysis of the deposited data

How the results depend on the processing

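Syt2 and Syt3 were called higher under 17 of 18 alternatives, all except in the 6 libraries with Y-linked counts, where 0 synaptotagmins were called and 58 genes in all. Against 368 called genes, DESeq2 gave 748 (456 higher), the split by mouse number as a term 642 (428 higher) and fits leaving out a library 182 (without PTU+TH mouse 15) to 499 (without PTU mouse 9); the share of higher calls, 70.1%, became 89.7% in the 6 libraries and 80.6% without PTU mouse 10. The 6 libraries leave 2 PTU+TH mice, and otherwise the cause was not tested. The log2 ratios of Syt2 to Syt1 and to Syt9 differed by 1.41 and 1.54 in the 6 libraries (adjusted exact p = 0.1, where 15 arrangements allow no raw p under 0.0667) and by 1.19 and 1.14 as medians (0.0857). Leaving out a library gave 1.13 to 1.35, 1.06 to 1.54 and, for Syt9 to Syt1, -0.287 to 0.0893. Uncalled members near 0 changed sign: in the 6 libraries Syt4 was at -0.0125, Syt11 at -0.023 and Syt10 at 0.0749, and Syt10 was at 0.00727 with upper quartile scaling, 0.00644 with limma voom and 0.00033 with the 1 CPM filter. Leaving out a library gave -0.184 to 0.0421 for Syt1, -0.264 to 0.0165 for Syt9, -0.0629 to 0.0484 for Syt10 and -0.482 to 0.0541 for Sv2b, and, with no change of sign, 0.0211 to 0.411 for Syt4, 0.0277 to 0.322 for Syt11, -0.199 to -0.0211 for Syt6, -1.36 to -0.511 for Sytl1, 0.466 to 1.07 for Cplx3 and -0.251 to -0.123 for Stxbp5. Scaling moved the median of all genes to -0.028 at most. No paired analysis was possible because no mouse number occurs in both groups. By Dixon's 95% critical value, 0 of 26 sets of 4 values held a library apart from the other 3, where chance gives about 1.3.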
